A study of Mus musculus with 20 samples.

Results

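The 100 genes described here are those whose RNA stood highest at day 14 relative to day 7 in wild-type mouse airway epithelium grown at an air-liquid interface. They were chosen from 38355 genes in the deposited table. Each library was first scaled to 1000000 reads (CPM), and each gene was scored by the log2 of its wild-type day 14 mean plus 1 CPM over its wild-type day 7 mean plus 1 CPM. Of the genes with a wild-type day 14 mean of at least 5 CPM and a symbol the rule did not leave aside (it left aside predicted and unnamed genes, mucins, keratins, secretoglobins, cytochromes P450, symbols starting with Col or Dnahc, and Sntn, Cdhr1 and Cdhr4), 10489 were ranked and the 100 highest kept. The scores ran from 1.88 for Oasl2 to 0.862 for Ttc29. Wild-type day 7 and day 14 levels chose these genes, so those levels are given as a description without a test, and likewise every contrast that uses them.

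In the mammalian trachea, basal cells give rise to secretory cells, which release host-defence proteins and carry many detoxifying enzymes, and to multiciliated cells, whose motile cilia clear mucus. A motile cilium is built after the cell has left the cycle, when transcription factors such as Foxj1 and the RFX family turn on the genes of the axoneme, the microtubule core of the cilium. The interferon response is a separate programme in which secreted interferons switch on antiviral genes through elements in their promoters. p73, the product of Trp73, is a p53-family transcription factor known for its part in multiciliated cell differentiation in mice.

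The tested cultures were labelled as coming from mice with a global p73 knockout, and the cultures they were set against came from wild-type mice. Both were primary tracheal epithelial cells harvested at days 0, 4, 7 and 14 after exposure to air. Each day had 2 labelled-knockout and 3 wild-type libraries of polyadenylated RNA, where the series text names 3 for either genotype. The labels used here give neither the age of the mice nor the part of Trp73 that was removed, and the titles of both day 4 replicate 1 libraries name day 3. The series text calls the replicates independent biological ones. The smallest library held 3.27 M reads (replicate 3 of wild type at day 4) and the largest 31.5 M (replicate 1 of labelled knockout at day 0).

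Trp73 reads were not lower in the labelled-knockout libraries, so those libraries are named by their label throughout. Trp73 stood at 49.1 and 48.7 CPM in labelled-knockout libraries, against 2.70, 2.21 and 1.07 CPM in wild type at day 0. It stood at 35.0 and 27.4 CPM against 9.80, 21.99 and 23.3 CPM at day 4, at 30.2 and 21.2 CPM against 22.1, 27.0 and 34.9 CPM at day 7, and at 30.5 and 16.7 CPM against 23.3, 27.0 and 27.3 CPM at day 14. A total over the gene cannot check a deletion of part of it. The 10 airway epithelial markers, such as Epcam and Cdh1, summed to 4567 to 10680 CPM in labelled-knockout and 4539 to 11020 CPM in wild-type libraries. In bulk RNA, fewer cells of a type and less RNA per cell cannot be told apart.

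The late genes fell into groups by what they are known to do. There were 19 genes of cilia and microtubules, 17 of secreted and host-defence proteins, 16 of metabolic enzymes and lipid handling, 18 of transport, adhesion and signalling, 7 of the interferon response and 23 others. In wild type 69 of the 100 had means that climbed at each step from day 0 through days 4 and 7 to day 14, among them all 19 cilium genes. The interferon genes did not follow this course: 6 of 7 had a higher mean at day 0 than at day 7. At day 14 the labelled-knockout mean was a median of 25.2% of the wild-type mean across the 100 genes, with a range of 2.02% to 636%. It was under 50% for 75 genes and above 100% for 15.

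**Figure D1:**
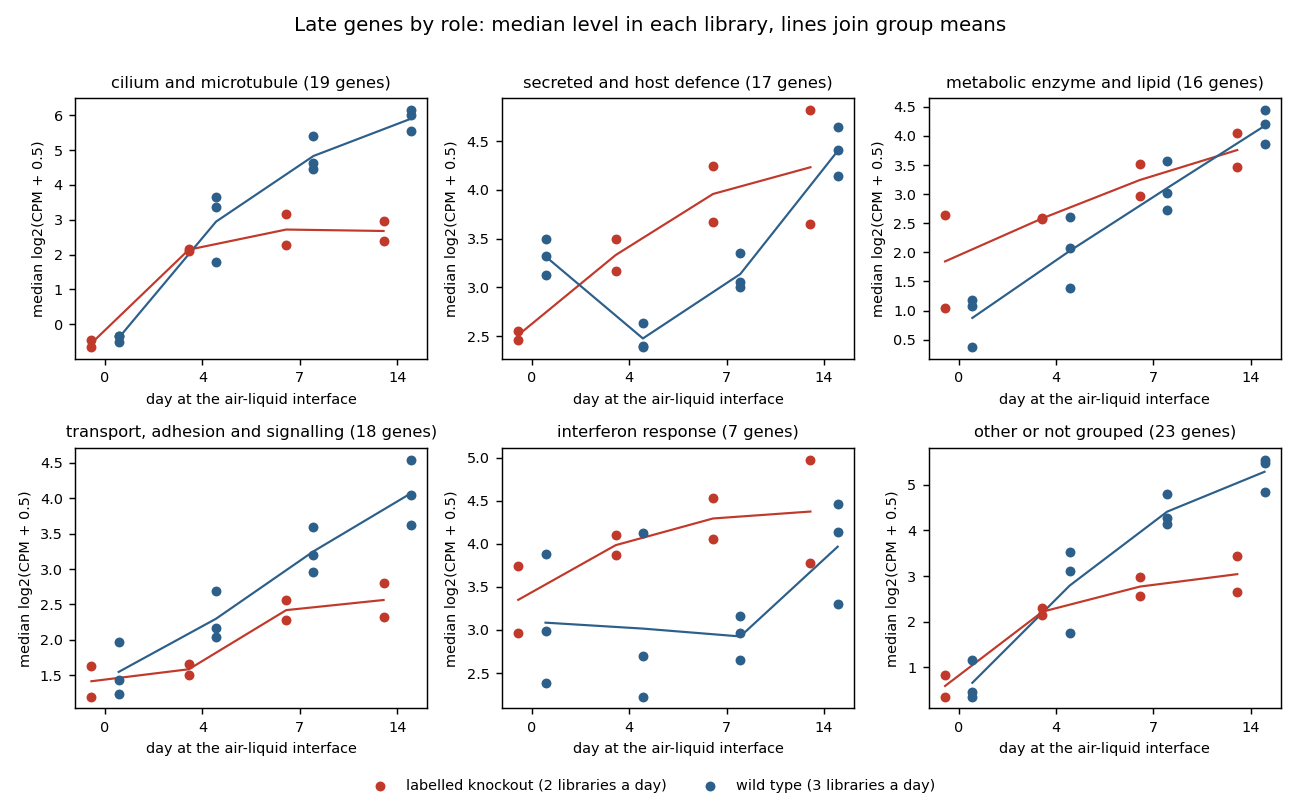
Median level of the late genes of each role in each library, as log2(CPM + 0.5), by day at the air-liquid interface (days evenly spaced), with labelled knockout in red and wild type in blue; lines join the means of the libraries. The medians of the 19 cilium genes climb at every step in wild type and stay near their day 7 level in labelled knockout, whereas those of the 7 interferon genes overlap at day 14.

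Levels are CPM with TMM scaling (trimmed mean of M values), and each mean carries its SD over libraries (n = 2 labelled knockout, n = 3 wild type). A difference is given on the log2 scale with its SE, from CPM plus 0.5, so changes at low levels come out too small. The test was that of limma over 15738 genes, and calls were made where the Benjamini-Hochberg FDR was below 0.05. All 100 late genes were among the genes tested, as the rule asks for at least 5 CPM in wild type at day 14.

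At day 14 every library of labelled knockout lay below every wild-type library for 77 of the 100 genes, a pattern found in 17.4% of all tested genes, and above for 8 (11% of all tested genes). At day 7 the counts were 62 below (13.4%) and 22 above (11.5%). Labelled-knockout libraries at day 14 lay below all wild-type libraries of day 7 for 56 genes (16.7%). The wild-type day 14 libraries all lay above the wild-type day 7 libraries for 78 genes, against 9.34% of all tested genes. For the other 22 genes the libraries of these days overlapped although the means gave a high score. The rule used these libraries, so nothing is read from these shares.

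The cilium and microtubule genes stood lowest in labelled knockout at day 14, with a median of 12.85% of the wild-type mean. All 19 were under 50%, and for all 19 the libraries of the genotypes did not overlap. They cover structural parts of the axoneme such as Spag16 of the central pair and Ccdc135 (Drc7) of the nexin-dynein regulatory complex, the cilia- and flagella-associated proteins Wdr96 (Cfap43), Ccdc147 (Cfap58), Ccdc37 (Cfap100) and Ccdc11 (Cfap53), and proteins with tubulin-binding domains such as Dcdc2b and Stmnd1.

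Sec14l3, a lipid-binding protein of the SEC14 family (ENSMUSG00000054986, chromosome 11, 4064841 to 4077736 in GRCm38), was the most abundant late gene. It stood at 964.7 and 1382 CPM in labelled knockout, against 2910.2, 3020.3 and 2804 CPM in wild type at day 14. At day 7 it stood at 888 and 822 CPM in labelled knockout, against 1436, 850.1 and 1870.5 CPM in wild type. The genotypes were apart at day 14 and overlapped at day 7. Sec14l3 had risen from day 0 in both: by 8.72 ± 0.51 at day 14 in labelled knockout (FDR 7.9e-09) and by 6.43 ± 0.42 at day 4 in wild type (FDR 2.09e-08).

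Cdhr3, a cadherin-related surface protein that serves as the receptor of rhinovirus C in humans (ENSMUSG00000035860, chromosome 12, 33033796 to 33092875), stood further apart. It stood at 10.6 and 16.7 CPM in labelled knockout, against 140.7, 205 and 236 CPM in wild type at day 14, and at 8.88 and 18.6 CPM against 68.5, 58.9 and 117 CPM at day 7. The day 14 and day 7 ranges overlapped in labelled knockout and did not in wild type. The coiled-coil protein Ccdc153 averaged 26.2 ± 9.90 CPM against 209 ± 62.5 CPM at day 14, and Wdr96, whose human homologue is mutated in sperm flagellum defects, averaged 39.5 ± 9.52 CPM against 138 ± 33.3 CPM. The extremes of the group were Fam166b, at 2.37% of the wild-type mean, and BC007180 (Erich3), at 40.5%.

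The earlier days were not used by the rule. In wild type 18 of 19 cilium genes rose between day 0 and day 4, where 13.6% of all tested genes rose, with a median difference of 2.80. In labelled knockout 13 of 19 rose by day 4 (9.19% of all genes), and 17 of 19 by day 7 (12.5%) and by day 14 (14.5%), with medians of 2.27, 3.13 and 3.00. At day 4 all 19 differences between labelled knockout and wild type were below 0 (16 with the replicate block), with a median of -0.92. Only Fam166b was called lower (-1.70 ± 0.38, FDR 0.0373), at 0.24 and 0.19 CPM against 0.72, 3.95 and 1.80 CPM. Its call was lost without any 1 of 4 libraries, among them both labelled-knockout ones. Without wild type day 4 replicate 1, which held the highest wild-type value for none of the 19, 8 of the 19 were called lower. In that fit 161 of all 15533 tested genes were called lower, against 37 of 15738 in the main fit. The title of the library left out names day 3. So does that of labelled knockout day 4 replicate 1, which stayed in this fit. Labelled knockout at day 14 lay above wild type at day 4 for 9 of these genes and below it for 10, with differences from -1.85 to 2.19 and a median of -0.02. The ratio of the means ran from 0.203 for Ttc29 to 4.13 for BC007180. BC007180 was called higher (2.19 ± 0.50, FDR 0.0466; a comparison added after the data were seen).

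Promoter windows are shown for 3 cilium genes with an RFX half-site (GTTGCCA on either strand) upstream of the annotated start, because RFX factors are the known regulators of ciliary genes. Each shows the 170 bases before the RefSeq start in GRCm38.p6, read on the gene's strand, with the half-site in capitals (here as its reverse complement). They are Cdhr3 (chr12:33092876-33093045, minus strand), Stmnd1 (chr13:46273551-46273720, plus strand) and Dcdc2b (chr4:129614273-129614442, minus strand).
Cdhr3: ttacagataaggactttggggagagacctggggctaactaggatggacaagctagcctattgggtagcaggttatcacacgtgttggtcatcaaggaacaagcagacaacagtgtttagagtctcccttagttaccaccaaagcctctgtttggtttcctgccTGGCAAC
Stmnd1: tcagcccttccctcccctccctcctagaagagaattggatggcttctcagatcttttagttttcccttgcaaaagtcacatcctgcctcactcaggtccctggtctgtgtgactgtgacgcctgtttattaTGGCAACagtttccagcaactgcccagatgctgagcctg
Dcdc2b: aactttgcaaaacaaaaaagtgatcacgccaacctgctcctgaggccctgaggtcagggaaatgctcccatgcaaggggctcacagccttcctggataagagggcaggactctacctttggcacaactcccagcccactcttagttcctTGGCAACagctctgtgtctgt
The half-site began 7, 39 and 21 bases before the start in Cdhr3, Stmnd1 and Dcdc2b. Of 91 RefSeq promoters matched to 75 of the late genes (250 bases before to 50 after the start), 9 held the half-site (9.89%), and of 18 promoters of cilium genes 5 did (27.8%). Over all 32851 promoters in the table the share was 4.38%. These are matches of letters only. Stmnd1 stood at 1.66 and 3.19 CPM against 32.0, 43.0 and 53.1 CPM at day 14, and Dcdc2b at 3.28 and 4.94 CPM against 34.8, 42.1 and 40.8 CPM. For both, labelled-knockout libraries lay below all wild-type ones, as for all 19 cilium genes. Ddx60, an interferon gene with the same half-site, lay above them.

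**Figure D2:**
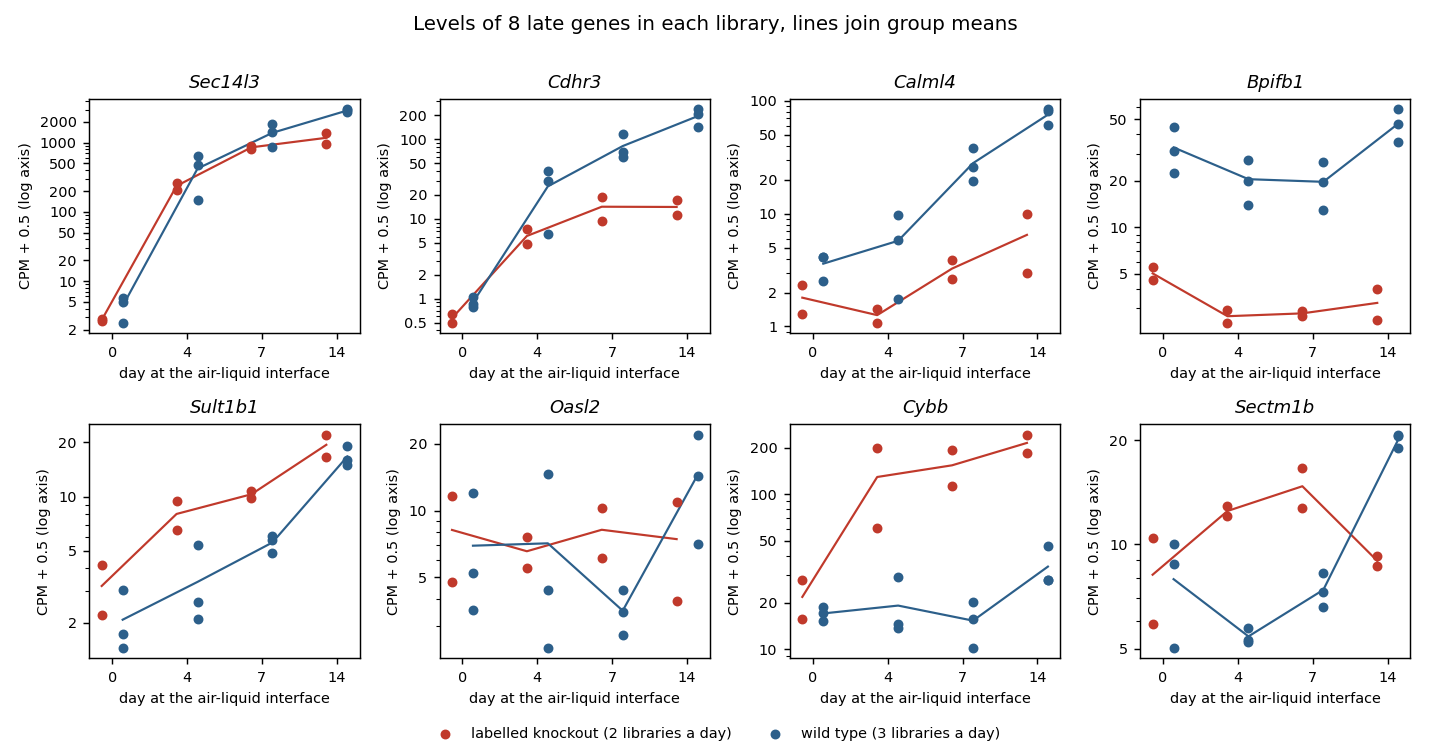
Levels of 8 late genes in each library as CPM + 0.5 on a log axis, by day at the air-liquid interface (days evenly spaced), with labelled knockout in red and wild type in blue; points are libraries and lines join group means. Sec14l3, Cdhr3 and Calml4 climb in wild type through day 14, Bpifb1 is low in labelled knockout at all days, Cybb is high there from day 4, and Sectm1b is lower at day 14 than at day 7 in labelled knockout.

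The secreted and host-defence genes split in 2 directions. At day 14 labelled knockout was under 50% of wild type for 10 of 17 and above 100% for 6, with a median of 38.1%. Bpifb1, a secreted BPI-fold protein of the airway surface (ENSMUSG00000027485, chromosome 2, 154190818 to 154220369), stood at 3.49 and 2.01 CPM in labelled knockout, against 57.6, 35.5 and 46.3 CPM in wild type at day 14. It was already low before differentiation, at 4.07 and 5.02 CPM against 21.9, 30.9 and 44.5 CPM at day 0 (-2.66 ± 0.35, FDR 0.0004) and at 1.92 and 2.41 CPM against 13.6, 19.6 and 26.9 CPM at day 4 (-2.90 ± 0.35, FDR 0.000354). The groups did not overlap on any day. Both calls held with each library left out.

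Bpifa1, another BPI-fold protein and an abundant product of the airway lining, stood at 399 and 487 CPM in labelled knockout, against 2687, 1558 and 2209.7 CPM in wild type at day 14. Adam8, a membrane metalloprotease of leukocytes and epithelium, stood at 31.2 and 52.4 CPM against 258, 238 and 275 CPM. Its wild-type course was a valley, with means of 194 CPM at day 0, 49.7 CPM at day 4, 104 CPM at day 7 and 257 CPM at day 14. In labelled knockout Adam8 fell by 2.66 ± 0.28 between day 0 and day 14 (FDR 3.17e-06). F5, coagulation factor V, stood at 45.1 and 41.4 CPM against 76.6, 72.7 and 86.55 CPM at day 14. Chia (Chia1), an acidic chitinase, averaged 2.85 ± 1.57 CPM against 8.54 ± 0.477 CPM.

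The members above wild type were led by Cybb, the membrane subunit of the phagocyte NADPH oxidase (ENSMUSG00000015340, chromosome X, 9435252 to 9487771). It stood at 243 and 186 CPM in labelled knockout, against 45.6, 27.7 and 27.6 CPM in wild type at day 14, and at 60.6 and 197 CPM against 13.2, 28.6 and 14.1 CPM at day 4. Labelled knockout lay above all wild-type libraries on both days. The day 4 difference was 2.61 ± 0.45 (FDR 0.00556), a call lost without labelled knockout day 4 replicate 2 (FDR 0.216). Itln1, a lectin of goblet cells, stood at 22.03 and 48.9 CPM against 9.54, 7.82 and 8.88 CPM at day 14. At day 4 its labelled-knockout libraries lay far apart and the lower one was within the wild-type range, at 4.55 and 131 CPM against 0.95, 5.10 and 1.80 CPM (3.28, FDR 0.149). Clca3 (Clca1), a secreted regulator of chloride channels made by goblet cells, stood at 162 and 139.8 CPM against 109, 109 and 106 CPM at day 14. The goblet list as a whole was mixed. Its 17 genes, Itln1 among them, summed to 419.8 and 489.5 CPM in labelled knockout, against 1620, 1447 and 1540 CPM in wild type at day 0. At day 14 the sums overlapped, at 490.5 and 1146 CPM against 422.4, 746.2 and 692.3 CPM. At day 0 Muc5b (-3.05 ± 0.285, FDR 3.06e-05), Muc5ac and Fcgbp were called lower and Tff1 higher.

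Because Cybb is also a leukocyte gene, the leukocyte list is given beside it. The pan-leukocyte gene Ptprc was at most 0.47 CPM in any library, and Ms4a1 of B cells was at 0 in all 20. Of the leukocyte markers 13 were tested, and 1 was called at day 4, Itgam, an integrin of myeloid cells (3.96 ± 0.52, FDR 0.000712). The list summed to 1309 to 8034 CPM in labelled knockout and 1024 to 1613 CPM in wild type at day 4, and to 1296 to 3118 CPM and 1093 to 1178 CPM at day 14. Most of this sum was the lysozyme Lyz2, at 7201 CPM in labelled knockout day 4 replicate 2. Cd53, another leukocyte gene, went the other way at day 14, at 0.04 and 0.10 CPM in labelled knockout, against 1.81, 1.97 and 2.07 CPM in wild type. The part of other cells in the Cybb level was not tested beyond these values.

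Sectm1b, a secreted and transmembrane protein that binds the T-cell receptor CD7 in mice, had the clearest opposite courses. It stood at 8.17 and 8.76 CPM in labelled knockout, against 19.99, 20.25 and 18.4 CPM in wild type at day 14. At day 7 it stood at 12.3 and 16.2 CPM against 7.79, 6.08 and 6.81 CPM, and at day 4 at 11.5 and 12.4 CPM against 4.74, 5.25 and 4.79 CPM. Labelled knockout was thus above wild type at days 4 and 7 and below it at day 14, with no overlap on any of these days. Labelled-knockout libraries at day 14 lay all below those of day 7 for 6 of the 100 genes (11.8% of all tested genes). Of these 6, 5 also had all wild-type libraries higher at day 14, Sectm1b among them (0.699% of all tested genes). The rule chose genes for that wild-type rise, so nothing is read from the second share. The day 4 difference was called (1.203 ± 0.274, FDR 0.0394), and the call was lost when any 1 day 4 library was left out (highest FDR 0.43, without labelled knockout replicate 2).

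Among metabolic and lipid genes several members reached the wild-type level in labelled knockout. The median at day 14 was 45.5% of wild type, with 9 of 16 genes under 50% and 5 above 100%. Sult1b1, a cytosolic sulfotransferase, stood at 16.2 and 21.6 CPM in labelled knockout, against 14.4, 18.6 and 15.6 CPM in wild type at day 14, and 10.3 and 9.35 CPM against 4.39, 5.28 and 5.54 CPM at day 7. The genotypes overlapped at day 14, and at day 7 labelled knockout lay above wild type.

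Sult1d1, a sulfotransferase of catecholamines in mice, stood at 76.9 and 194 CPM in labelled knockout, against 294, 325 and 356 CPM in wild type at day 14. B3galt2, a galactosyltransferase, stood at 109 and 169.5 CPM against 251, 285 and 319 CPM. Ces1f, a carboxylesterase, differed most between its labelled-knockout libraries, at 185 and 663 CPM against 161, 240.2 and 211 CPM. Only Ces1f overlapped between the genotypes among these 3.

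Vnn1, a pantetheinase, and Alox15, a lipoxygenase of arachidonic and linoleic acid, were higher in labelled knockout from the start. Vnn1 stood at 44.9 and 109 CPM in labelled knockout, against 10, 13.9 and 9.98 CPM in wild type at day 0 (2.59 ± 0.58, FDR 0.023) and at 84.2 and 255 CPM against 8.72, 19.4 and 6.28 CPM at day 4 (3.77 ± 0.58, FDR 0.00261). The day 0 call was lost without any 1 of 3 libraries (highest FDR 0.161), and the day 4 call without labelled knockout replicate 2 (FDR 0.117). Alox15 stood at 201 and 518 CPM against 28.7, 24.6 and 14.7 CPM at day 0 (3.85 ± 0.45, FDR 0.000151), a call that held with each library left out. At day 4 it stood at 61.2 and 87.5 CPM against 7.09, 27.6 and 13.8 CPM (2.35 ± 0.45, FDR 0.0113; FDR 0.266 without labelled knockout replicate 2, and lost also without wild type replicate 3). For both genes labelled knockout lay above wild type without overlap on both days.

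Of 43 tested genes on a list of xenobiotic and oxidoreductase enzymes, 3 were among the late genes, Ces1f and Sult1d1 included. In labelled knockout 35 of the 43 had a difference above 0 between day 7 and day 14, against 46.8% of all tested genes, with a median of 0.33 against -0.01 over all genes, and none was called. In wild type 32 of 43 were above 0 over the same days, with a median of 0.17. From day 0 to day 14 in labelled knockout 29 rose and 1 fell.

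The transport, adhesion and signalling genes stood at a median of 27.2% of wild type at day 14, with 14 of 18 under 50%. Cdh26, an epithelial cadherin, stood at 12.9 and 34.8 CPM in labelled knockout, against 108, 181 and 227 CPM in wild type. Slitrk6, a transmembrane protein with leucine-rich repeats, averaged 49.6 ± 6.02 CPM against 126 ± 11.4 CPM, and Arhgdig averaged 14.4 ± 6.16 CPM against 60.2 ± 13.6 CPM. Elmod1, a GTPase-activating protein for small GTPases, averaged 6.30 ± 0.700 CPM against 41.3 ± 9.46 CPM.

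Diras2, a Ras-family GTPase, stood low in labelled knockout from day 4 on. At day 0 it stood at 28.6 and 39.8 CPM in labelled knockout, against 29.4, 44.8 and 43.2 CPM in wild type. At day 4 it stood at 0.41 and 0.35 CPM against 2.88, 5.01 and 2.99 CPM (-2.20 ± 0.41, FDR 0.00922), and at day 14 at 0.29 and 1.34 CPM against 17.2, 18.8 and 20.2 CPM. The genotypes overlapped at day 0 and were apart at days 4 and 14. Diras2 fell from day 0 to day 4 in both genotypes, by 5.29 ± 0.45 in labelled knockout (FDR 7.61e-07) and by 3.28 ± 0.36 in wild type (FDR 4.64e-06). Scn3b, a beta subunit of sodium channels, was also lower at day 4 (-1.84 ± 0.37, FDR 0.0171), at 0.74 and 1.48 CPM against 3.89, 7.07 and 4.79 CPM. Both day 4 calls were lost without either labelled-knockout library (highest FDR 0.167 for Diras2 and 0.22 for Scn3b), and that of Scn3b also without wild type replicate 2 or 3.
The epithelial sodium-coupled monocarboxylate transporter Slc5a8 averaged 16.3 ± 10.9 CPM in labelled knockout and 12.2 ± 3.56 CPM in wild type at day 14. Its genotypes overlapped, at 8.63 and 24.05 CPM in labelled knockout against 9.32, 16.2 and 11.15 CPM in wild type.

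At day 14 the genotypes overlapped for 5 of the 7 interferon genes, and at day 7 the labelled-knockout libraries all lay above wild type for 6 of 7. At day 14 their labelled-knockout means were a median of 82.3% of wild type, 3 of them above 100%. Labelled-knockout libraries lay below all wild-type libraries for 1 of the 7, Ifit3, and above for 1, Ddx60. Oasl2, an antiviral protein of the oligoadenylate synthetase family and the late gene with the highest score (ENSMUSG00000029561, chromosome 5, 114896936 to 114912234), stood at 10.5 and 3.40 CPM in labelled knockout, against 6.56, 21.6 and 13.8 CPM in wild type at day 14. At day 7 it stood at 9.77 and 5.61 CPM against 2.25, 3.87 and 2.97 CPM, and at day 0 at 4.24 and 11.1 CPM against 3.07, 11.5 and 4.72 CPM. Within wild type the day 7 libraries all lay below those of day 14, and the wild-type day 0 and day 14 ranges overlapped.

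Ifit3, an interferon-induced protein with tetratricopeptide repeats, stood at 2.66 and 1.24 CPM in labelled knockout, against 2.87, 14.6 and 8.35 CPM in wild type at day 14. Isg15, a ubiquitin-like modifier, stood at 9.38 and 9.27 CPM against 5.77, 18.6 and 9.62 CPM. Irf7, a transcription factor of the interferon response, stood at 38.6 and 22.7 CPM against 27.3, 56.0 and 31.5 CPM. Replicate 2 held the highest wild-type value at day 14 for all 7 genes, and also at day 4 for all 7, at day 0 for 6 and at day 7 for 6. In labelled knockout replicate 1 was the higher library for all 7 at day 14. Ifi44, an interferon-induced cytoplasmic protein, stood at 69.8 and 32.8 CPM in labelled knockout, against 31.4, 66.4 and 49.4 CPM in wild type at day 14. Ddx60, an antiviral helicase, was the only 1 of the 7 called in labelled knockout between day 0 and day 14 (2.03 ± 0.37, FDR 0.000474), and Rtp4, a Golgi chaperone induced by interferon, averaged 25.9 ± 18.02 CPM against 24.96 ± 3.82 CPM at day 14.

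On a list of 37 tested interferon-response genes, 5 of them late genes, 35 were higher at day 14 than at day 7 in wild type, with a median of 0.42, where 51.2% of all tested genes were above 0. The rule used these libraries and chose 5 of the 37, so no test is given. In labelled knockout 17 of the 37 were above 0, with a median of -0.04.

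The promoters of Isg15 (chr4:156200819-156200988, minus strand) and Ifit3 (chr19:34583359-34583528, plus strand) are shown because both held the element and are among the late genes with the highest scores. They are given as above, with matches to the interferon element (GAAA and GAAA with any 2 bases between, in either orientation) in capitals. Of the 3 matches of Isg15, each overlaps the next, while the first and the last do not overlap.
Isg15: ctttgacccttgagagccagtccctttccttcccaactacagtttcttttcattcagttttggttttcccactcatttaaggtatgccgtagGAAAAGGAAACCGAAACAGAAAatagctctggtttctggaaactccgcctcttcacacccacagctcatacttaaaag
Ifit3: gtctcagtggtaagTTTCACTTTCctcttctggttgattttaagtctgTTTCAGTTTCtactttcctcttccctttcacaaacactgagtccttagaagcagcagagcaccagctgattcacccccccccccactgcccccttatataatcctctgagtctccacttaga
The first match began 78 bases before the start in Isg15 and 156 bases before it in Ifit3. Of 6 interferon promoters 3 held the element (50%), of the 91 late gene promoters 6 did (6.59%), and of all promoters 3.44%. Other motifs were searched on both strands of the 91 promoters. The forkhead motif GTAAACA was in 4.4% against 3.65% of all promoters, the C/EBP motif TTGCNNAA in 17.6% against 10.8%, and the p53-family half-site in 8.79% against 8.36%.

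Of the 23 genes outside these roles, 21 stood under 50% of wild type at day 14, with a median of 20.54%. Calml4, a calmodulin-like light chain, stood at 2.45 and 9.53 CPM in labelled knockout, against 61.2, 80.2 and 83.7 CPM in wild type. AU040972, an antisense transcript on chromosome 11 (79481719 to 79484031), stood at 349.8 and 562 CPM against 1465, 1843 and 1852 CPM. The strand setting of the counting is not given in the sources used here, so its reads cannot be told apart from those of an overlapping gene on the other strand. Serpinb12, a serine protease inhibitor, averaged 23.8 ± 20.3 CPM against 90.7 ± 46.3 CPM.

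Lrrc51, a protein with leucine-rich repeats, averaged 31.0 ± 19.1 CPM in labelled knockout and 123 ± 36.3 CPM in wild type at day 14, and Lbh, a transcription cofactor, stood at 16.02 and 16.28 CPM against 83.7, 128 and 125 CPM. Fam216b and Ldlrad1 were called lower at day 4, at 0.34 and 0.58 CPM against 1.21, 12.9 and 8.08 CPM for Fam216b (-2.61 ± 0.60, FDR 0.0432) and at 0.61 and 0.23 CPM against 1.18, 6.40 and 2.99 CPM for Ldlrad1 (-1.93 ± 0.42, FDR 0.0271). Each call was lost without any 1 of 4 libraries (highest FDR 0.277 for Fam216b and 0.473 for Ldlrad1, both without labelled knockout replicate 2). S100b, a calcium-binding protein also used as a glial marker, stood at 0.54 and 1.03 CPM against 2.07, 3.97 and 9.22 CPM at day 14, while the glial gene Sox10 was at most 0.28 CPM in any library.

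**Figure D3:**
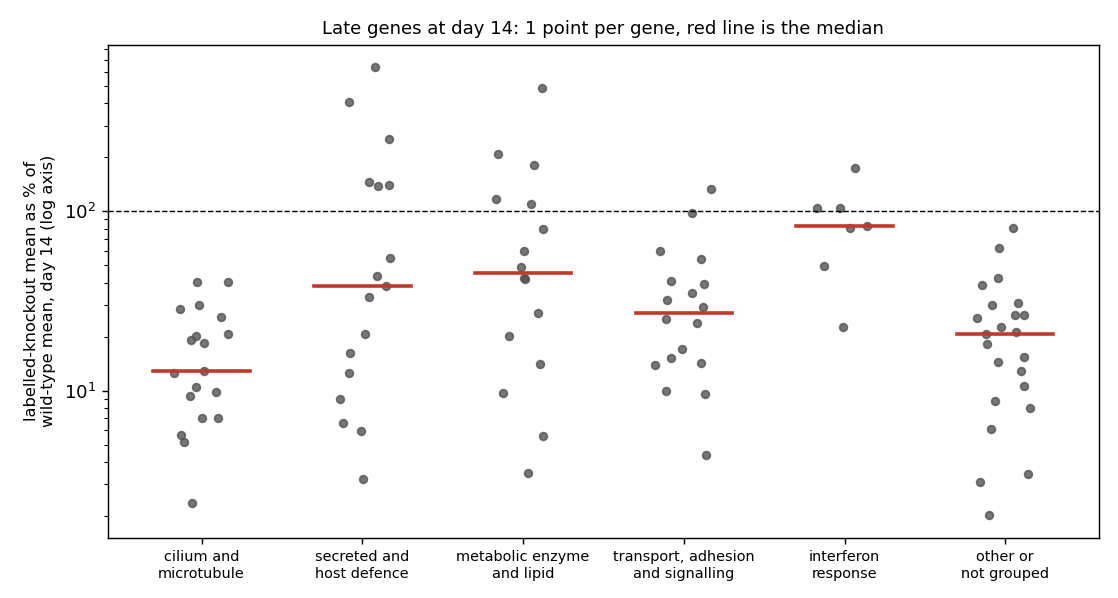
Labelled-knockout mean as a percentage of the wild-type mean at day 14 on a log axis, 1 point per late gene, grouped by role, with the median of each role as a red line and equality dashed. All 19 cilium genes lie under 50%. The 7 interferon genes lie on both sides of equality, from 22.6% to 173%, with a median of 82.3%.

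Did the late genes also increase between day 7 and day 14 in labelled knockout? None of the 100 was called in either direction, and neither was any of the 15738 tested genes by limma or edgeR. DESeq2 called 6 of all genes, and 292 (1.86%) had an unadjusted p under 0.05 by limma. Between the same days in wild type, limma and edgeR also called 0 of all tested genes, and DESeq2 called 17. The absence of calls therefore does not set the genotypes apart. The labelled-knockout means used no library of the rule, but their SE and FDR used the spread of all 20 libraries. At an unadjusted p under 0.05, 2 late genes had a difference above 0, Sult1b1 among them (0.90 ± 0.42), and Sectm1b had one below 0 (-0.70 ± 0.30), all with a limma FDR of 1. Over all tested genes 0.527% were above 0 and 1.33% below 0 at that p. edgeR and DESeq2 called none of the 100 and put 4 each under an unadjusted p of 0.05. The median difference of the 100 genes was 0.14 in labelled knockout, against -0.01 over all tested genes, and 66 were above 0, against 46.8% of all tested genes. That median moved with 1 library: without labelled knockout day 14 replicate 2 it was -0.15 with 39 genes above 0, and without replicate 1 it was 0.37 with 72. Replicate 2 held the higher value at day 14 for 77 of the 100 genes. Same-numbered libraries of days 7 and 14 deviated together (correlation 0.808), so the difference was also taken within each number after the data were seen. It had a median of 0.04 in replicate 1, with 54 genes above 0, and of 0.21 in replicate 2, with 61 above 0. With the replicate number as a block none of the 15738 tested genes was called, the 100 included, and 10 of the 100 had an unadjusted p under 0.05. The share of all tested genes under that p is not given here for edgeR, DESeq2 or the block. Nothing is therefore read from their counts of late genes under it.

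By role, the medians between day 7 and day 14 in labelled knockout were 0.13 for cilium genes, 0.24 for secreted, 0.23 for metabolic, -0.06 for transport, adhesion and signalling, -0.04 for interferon and 0.17 for other genes. In 2 roles the replicate numbers went opposite ways. The interferon median was 0.25 in replicate 1 and -0.28 in replicate 2, and that of transport, adhesion and signalling was -0.18 and 0.25. The remaining roles had medians above 0 in both. Libraries of day 14 lay all above those of day 7 for 15 of the 100 genes, against 8.67% of all tested genes, and 6 of these 15 were metabolic. In wild type, where the rule chose the genes, the median was 1.05. The plot of late change sets the genotypes side by side.

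**Figure D4:**
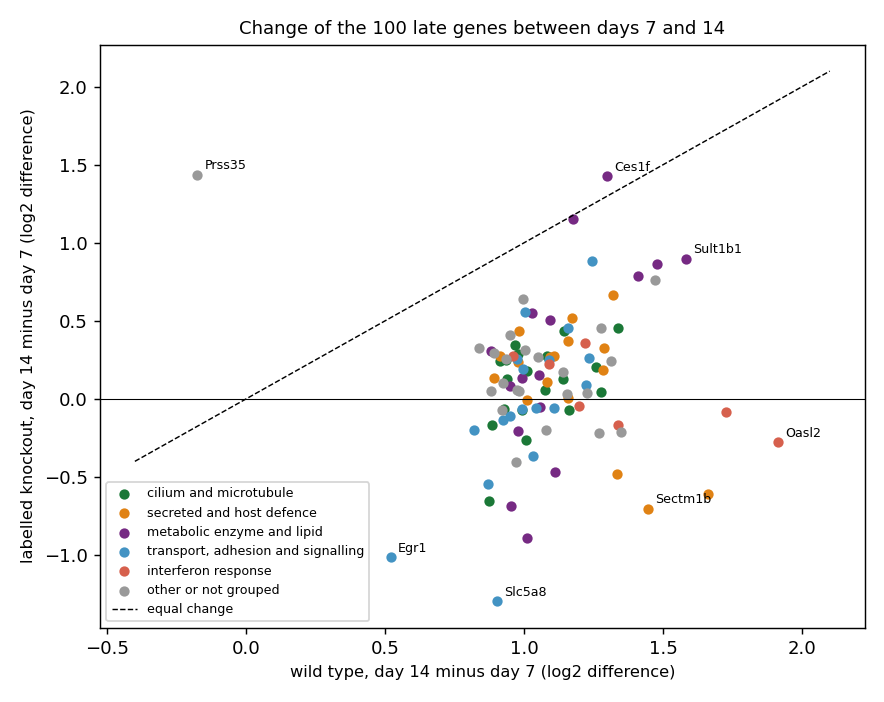
Log2 difference between day 14 and day 7 in labelled knockout (vertical axis) and in wild type (horizontal axis), 1 point per late gene, coloured by role, with equal change dashed. Of the 100 genes 98 lie below the dashed line. The rule chose genes for their wild-type rise, which favours that side, so nothing is read from this count. Ces1f lies close to the dashed line, Prss35 lies far above it, and Sectm1b, Egr1 and Slc5a8 lie below 0 in labelled knockout.

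Most of the late genes had nevertheless risen in labelled knockout since day 0. By day 14, 56 were higher and 7 lower, against 14.5% and 17.6% of all tested genes called higher and lower, with a median difference of 1.63 against -0.01. By day 7, 53 were higher and 7 lower (12.5% and 14.2%), and by day 4, 33 were higher and 7 lower (9.19% and 10.9%). In wild type 47 were higher and 5 lower at day 4 (13.6% and 13.4%), with a median of 0.94. The 7 that fell by day 14 in labelled knockout were Diras2, Prss35, Adam8, Mxra8, Alox15, Lbh and Ctse. The 3 labelled-knockout comparisons share their day 0 libraries. Scaling by column sums alone put the median of all genes at 0.133, 0.139 and 0.096 for days 14, 7 and 4 in labelled knockout and at 0.093 for day 4 in wild type. The share of all calls that were higher was then 58.4%, 62.5%, 56.3% and 62.7%, against 45.1%, 46.8%, 45.8% and 50.3% with TMM.

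How did the genotypes differ before the rule's time points? At day 0 labelled knockout was higher for Vnn1 and Alox15 and lower for Bpifb1, so 2 and 1 of 100 were called, against 1.81% and 0.413% of all tested genes. With the replicate number as a block 5 were higher and 4 lower at day 0. At day 4, 4 were higher (Vnn1, Cybb, Alox15 and Sectm1b) and 6 lower (Bpifb1, Fam216b, Diras2, Ldlrad1, Scn3b and Fam166b), against 0.909% and 0.235% of all tested genes. Of the 100 differences at day 4, 73 were below 0 and 27 above 0 (52.8% of all tested genes were above 0), with a median of -0.43 where the median of all genes was 0.017. The count of lower late genes was 23 when replicate 1 of wild type was left out. In that fit 161 of all 15533 tested genes were called lower, against 37 of 15738 in the main fit. The counts also moved when a labelled-knockout library of day 4 was left out, as without both libraries titled day 3. Those fits kept 1 labelled-knockout library at day 4, so nothing is read from their counts. Wild type day 4 replicate 1 held the highest of the wild-type values for only 3 of the 100 genes.

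Squamous markers moved with the genotype at these times. Of 16 tested, 12 were higher in labelled knockout at day 0 and 8 at day 4, such as Krt13 (6.91 ± 0.96 at day 4, FDR 0.00109), and 17 genes of the list, each on a single line of the file, summed to 5385 to 7130 CPM in labelled knockout and 479 to 764.5 CPM in wild type at day 4. Whether this bears on the late genes was not tested. The change of the late genes from day 0 to day 4 did not pass a test of the difference between genotypes for any of the 100, with 3 genes called of all tested (0.0191%), 5 late genes higher and 9 lower at an unadjusted p under 0.05 (1.08% and 1.8% of all tested genes), and 1 called by DESeq2. This test was added after the data were seen.

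Labelled knockout at day 14 was also set against wild type at day 4, a comparison added after the data were seen. Its means are free of the libraries that chose the genes, but its SE and FDR used the spread of all 20 libraries. Here 11 late genes were higher and 1 lower, against 0.515% and 0.477% of all tested genes, with a median difference of 0.27. The higher ones included Cybb (3.56 ± 0.45, FDR 0.00094), Lgals4, a galectin of epithelium (3.23 ± 0.56, FDR 0.0086), Clca3 (2.73 ± 0.37, FDR 0.00153) and Sult1b1 (2.64 ± 0.39, FDR 0.00271). The lower one was Bpifb1 (-2.65 ± 0.35, FDR 0.00138). With each library left out the calls of Cybb, Alox15, Clca3 and Bpifb1 held. Those of Lgals4 and Sult1b1 were lost without labelled knockout day 14 replicate 2, with FDR of up to 0.215.

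A wider ciliary list is given beside the late genes. Of 53 tested genes of ciliary structure, 5 of them late genes (Ccdc153, Cdhr3, Sec14l3, Spag16 and Tmem212), all 53 rose in wild type by day 4 and 51 in labelled knockout by day 14. At day 14 all 53 differences between labelled knockout and wild type were below 0, with a median of -1.71, given without a test because of the wild-type day 14 libraries. All 53 were above 0 between day 7 and day 14 in wild type, with a median of 0.60, and 19 in labelled knockout, with a median of -0.07. Of 15 regulators of multiciliated cells, none a late gene, 12 rose in wild type by day 4, and 10 rose and 1 fell in labelled knockout by day 14.

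The edge of the choice lay among genes with nearly equal scores. Ggt6 (0.864) and Ttc29 (0.862) were the last taken, and Clca4 and Agr3 (both 0.862) the first left out. Some members owed their place to 1 library: Prss35, a serine protease, stood at 19.5, 1.06 and 0.33 CPM in wild type at day 14 and 6.05, 1.71 and 2.09 CPM at day 7, and Egr1, an immediate early transcription factor, at 11.4, 13.7 and 63.5 CPM and 14.6, 15.3 and 14.9 CPM. Both were named after their values were seen. Of the 100 genes, 73 to 79 remained when 1 wild-type library of day 7 or day 14 was left out.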

How the data were processed

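RNA was measured in 20 libraries, 2 labelled knockout and 3 wild type at each of 4 days. The authors deposited signal values per gene that the file headers call read counts; from the values, they are counts divided by a size factor set within a day. The submitters' processing notes name STAR 2.3.0e, DESeq2 1.4.5 and mm10, with no roles given. No source used here names the counter, the annotation or the strand setting. The authors also deposited, per the file headers, log2 fold changes and adjusted p-values of labelled knockout against wild type at each day, which no sentence uses. Gene positions come from GENCODE on GRCm38 and promoters from RefSeq GRCm38.p6.

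Because the values were not raw counts, the planned count test became an alternative and limma 3.58.1 (trend and robust, R 4.3.3) was used, on log2(CPM + 0.5) with TMM factors, over 15738 genes with at least 0.5 CPM in 2 libraries and all 8 groups in 1 fit. Whole reads were recovered (all values within 0.1 of a multiple of 1 step per library) and tested with edgeR 4.0.16 and DESeq2 1.42.0. The limma script was tested on simulated data. Other scalings, pseudocounts, filters, a replicate block and each library left out were tried. Library size limits precision at low levels, where 1 read in the smallest library weighs most.

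The genes, gene lists and roles were chosen with earlier results of these data known, the roles after the names were seen. Genes named were those with the highest scores, the highest wild-type day 14 levels of each role, those called between genotypes with the largest change, list members with the highest scores and the genes at the threshold. Any other gene was named after its values were seen. Same-numbered libraries of the genotypes deviated together on each day (8 of 8 pairs above 0.1, correlations 0.267 to 0.604 over 11016 genes). The main fit nevertheless did not pair them, so its calls between genotypes are unpaired. The replicate block, which takes the numbers into account, was fitted as an alternative. The values of 1 of the genes are not reported here.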

Additional observations from a re-analysis of the deposited data

Results flagged for a closer look

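In 5 of the 100 late genes every labelled-knockout library was lower at day 14 than at day 7 while every wild-type library was higher. This pattern was held by 0.699% of all tested genes. The rule chose genes for the wild-type part of it, so nothing is read from that share. The labelled-knockout part alone was held by 6 of the 100 genes, against 11.8% of all tested genes. The difference between the genotypes was not tested, because wild-type levels at these days chose the genes. Sectm1b had a labelled-knockout difference between day 14 and day 7 of -0.703 on the log2 scale.

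Ggt6, a gamma-glutamyltransferase, had a difference of -0.683. It stood at 0.54 and 1.34 CPM at day 14 and 1.49 and 1.98 CPM at day 7 in labelled knockout, against 4.56, 7.55 and 7.81 CPM and 2.73, 2.56 and 4.23 CPM in wild type. Tmem158, a transmembrane protein, had a difference of -0.406, with 29.6 and 31.9 CPM at day 14 and 36.7 and 45.5 CPM at day 7 in labelled knockout, against 49.5, 55.3 and 42.5 CPM and 19.97, 25.5 and 29.4 CPM in wild type. Zfp783, annotated as a transcribed pseudogene, had a difference of -0.215 at levels under 1 CPM in labelled knockout. Pltp, the phospholipid transfer protein, had a difference of -0.204, with 30.9 and 30.7 CPM at day 14 and 38.9 and 32.55 CPM at day 7 in labelled knockout, against 107, 124 and 112 CPM and 55.3, 47.3 and 73.4 CPM in wild type.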

How the results depend on the processing

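Over 41 single-gene results, 468 of 555 alternatives kept the call, 87 lost it and 0 reversed it. Only results called in the main fit were taken, and between days of a genotype only those with the largest changes. Reversals were thus unlikely from the outset, and nothing is read from their absence. The median of the late genes between day 7 and day 14 in labelled knockout did change sign with 1 library, as given above. Counts of late genes moved more, and so did those over all tested genes. For labelled knockout against wild type at day 4, the latter went from 143 higher and 37 lower in the main fit to 237 and 119 with DESeq2. For labelled knockout against wild type at day 0 (2 higher, 1 lower), DESeq2 gave 5 higher and 4 lower, the replicate block 5 and 4, and a fit of the compared groups alone 0 and 0. At day 4 (4 higher, 6 lower), DESeq2 gave 7 and 17, pseudocount 1 gave 3 lower, the compared groups alone 0 and 1, and leaving out both libraries titled day 3 gave 17 lower. For labelled knockout at day 14 against wild type at day 4 (11 higher, 1 lower), DESeq2 gave 20 and 4, the block 17 and 2, column sums 2 lower, pseudocount 0.1 2 lower, the compared groups alone 2 and 0, and no library titled day 3 gave 5 lower. For labelled knockout at day 14 against day 0, column sums gave 4 lower, not 7. The causes were not tested. With each library left out in turn, labelled knockout gave 0 to 0 calls between day 14 and day 7, 41 to 55 higher and 2 to 5 lower between day 14 and day 0, 42 to 49 and 3 to 7 between day 7 and day 0, and 20 to 26 and 4 to 8 between day 4 and day 0; wild type gave 40 to 51 and 5 to 7 between day 4 and day 0. Between genotypes the ranges were 1 to 5 and 1 to 3 at day 0, 0 to 6 and 1 to 23 at day 4, and 4 to 13 and 1 to 7 for day 14 against day 4. A lone library left in a group was taken to vary like the other groups. Within a genotype, wild-type numbers correlated less between days 0 and 4 (0.0518, 0.227 and 0.0922, with replicate 2 above 0.1) than between days 7 and 14 (0.659, 0.435 and 0.409). The 2 labelled-knockout numbers, whose deviations mirror each other, gave 0.808 for days 7 and 14, 0.746 for days 4 and 7 and 0.152 for days 0 and 4. With 2 labelled-knockout libraries a day, small differences were not detectable.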
